A study of Mus musculus with 10 samples.

Results

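The NFAT and NF-kappaB transcription factors and a pair of their inhibitors were measured in mouse CD4+ CD8+ double-positive (DP) thymocytes in which the genes of the E proteins E2A, HEB or both had been targeted. The set was chosen by gene symbol, with earlier results of these data known. It listed 10 genes: Nfatc1, Nfatc2, Nfatc3, Nfkb1, Nfkb2, Rel, Rela, Relb, Nfkbia and Nfkbid. Of these, 9 had a probe set under their symbol, of 19937 named genes on the array, and Nfkb1 was not analysed here. Each of the 9 had exactly 1 probe set and passed the filter on low intensity, which 13138 genes passed in all. RNA came from sorted DP cells of 10 individual mice aged 8 weeks, 1 array per mouse. All mice, controls included, carried Cd4-cre, a recombinase driven by the Cd4 gene's regulatory sequence and therefore active from about the DP stage on. The control group (WT, n = 3) had no floxed allele named, E2AKO mice (n = 2) were E2Aflox/flox, HEBKO mice (n = 2) were HEBflox/flox, and DKO mice (n = 3) were E2Aflox/flox HEBflox/flox. Sorted cells were over 98% pure by CD4 and CD8 staining, per the labels. The p-values therefore measure the spread between mice.

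NFAT proteins are held in the cytoplasm by phosphorylation. Calcium entry after antigen receptor engagement activates the phosphatase calcineurin, which lets NFAT enter the nucleus, where it often binds DNA together with AP-1 or other partners. NF-kappaB dimers of Rel, Rela, Relb and the products of Nfkb1 and Nfkb2 are held back by IkappaB proteins until a kinase complex marks the inhibitor for destruction. In the thymus both pathways act downstream of the T cell receptor during selection of DP cells, so transcript levels of the factors are only one layer of their control. E proteins are basic helix-loop-helix factors that bind the E-box, a short palindromic DNA motif.

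The promoters of members whose transcripts fell in DKO are shown because some of their windows hold matches to NF-kappaB, NFAT or E-box motifs. RefSeq promoter windows of 250 bases before the transcript start (build GRCm38.p6) were used for 7 of the 10 listed genes, 13 windows in all. Any member windows on 1 chromosome were left out by choice, and the count over all windows had no such exclusion. Nfatc1, Nfkb1 and Relb had no window among the 13, and whether the exclusion took any window was not recorded. The Nfkbia window is given whole, 5′ to 3′ on its own strand, with a match to the NF-kappaB consensus in capitals. That match began 29 bases before the start, and 1 base upstream of it began a match to the NFAT core TGGAAA that overlaps it.
Nfkbia (chr12:55492648-55492897, minus strand): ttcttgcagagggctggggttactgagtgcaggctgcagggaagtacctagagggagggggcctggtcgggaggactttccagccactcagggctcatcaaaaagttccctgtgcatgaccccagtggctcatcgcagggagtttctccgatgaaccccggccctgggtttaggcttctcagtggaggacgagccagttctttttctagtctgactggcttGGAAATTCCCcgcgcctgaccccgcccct
A stretch of 30 bases is given for each of 3 further members, with the match in capitals. The first holds an NF-kappaB consensus match, and the other 2 hold E-boxes. A further window of Nfatc2 and a further window of Nfatc3 held no E-box.
Nfkb2 (chr19:46304688-46304717, plus strand): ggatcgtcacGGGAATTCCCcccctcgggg
Nfatc2 (chr2:168590456-168590485, minus strand): cagacagcagCAGGTGaagcagaagttgtc
Nfatc3 (chr8:106059437-106059466, plus strand): gcttcttgctCACGTGacttcctcctcgca
Rel, whose transcript was not called in any comparison with WT, held NF-kappaB consensus matches too, a pair that overlap each other.
Rel (chr11:23771042-23771071, minus strand): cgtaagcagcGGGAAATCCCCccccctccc
On both strands, the E-box CANNTG was present in 66.2% of all 32851 windows of this length and in 4 of the members' 13 windows, which belong to Nfatc2, Nfatc3 and Nfkbid. Its form CAGGTG, a subset of CANNTG, was in 17.2% of all windows and in 2 of the members' windows. The form CAGCTG was in 13.0% of all windows and in 0 of theirs. The Nfatc3 match, CACGTG, was of neither form. The NF-kappaB consensus was in 5.0% of all windows and in 5 of the 13, those of Nfkbia, Nfkb2, Rel and Nfkbid. The NFAT core was in 18.6% of all windows and in 4 of the 13, those of Nfatc2, Nfkbia, Nfkb2 and Nfkbid. A match describes letters in a window and does not show binding.

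Values are linear RMA intensities of 1 probe set, so they compare a gene between arrays and not 1 gene with another. Array medians ran from 92.6 to 98.6. The probe sets of the targeted genes kept signal. Tcf3, which encodes E2A, was at 790.1 to 922.7 in WT, 555.6 to 598.7 in E2AKO, 1041.3 to 1070.9 in HEBKO and 487.8 to 625.4 in DKO. Tcf12, which encodes HEB, was at 3410.9 to 3858 in WT, 3739.8 to 4096.3 in E2AKO, 2270.6 to 2853.8 in HEBKO and 1644.7 to 1694.9 in DKO. In DKO both passed the test against WT (limma, adjusted p = 0.00256 for Tcf3 and 3.07e-05 for Tcf12). Tcf3 in E2AKO (-0.54 on the log2 scale, adjusted p = 0.998) and Tcf12 in HEBKO (-0.52, adjusted p = 0.0657) did not, although neither group overlapped with WT. Whether these probe sets lie within the deleted exons was not examined.

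Defining markers of DP cells were present in all 10 arrays, but their summed intensity over 7 genes on the array was 36874 to 38300 in WT, 36554 to 36640 in E2AKO, 25936 to 34481 in HEBKO and 18329 to 21304 in DKO. Such sums of raw intensity, here and below, weigh the brightest genes most. Cd4, Cd8a, Cd8b1, Rag1 and Rag2 were lower in DKO. Rag1 was at a mean of 13197.8 in WT and 4309.7 in DKO, and Cd4 at 4789.5 and 1317.7. The other DP markers on the array, Ptcra (-0.24 on the log2 scale, adjusted p = 0.286) and Cd1d1 (0.09, adjusted p = 0.77), did not pass. Summed markers of mature single-positive cells (Ccr7, S1pr1, Klf2 and Il7r, 4 of 5 listed) were 483 to 544 in WT, 460 to 569 in E2AKO, 448 to 789 in HEBKO and 2008 to 2663 in DKO. Double-negative thymocyte markers (5 of 5 listed) summed to 377 to 473 in WT and 549 to 796 in DKO. Of them Il2ra passed the test, with a mean of 83.3 in WT and 388.1 in DKO. Kit (98.6 and 90.5) and Cd44 (124.4 and 109.8) did not pass. Hes1 (59.3 and 61.1) and Erg (63.1 and 63.4) were too dim to be tested. Of the B cell markers Cd79a and Ms4a1 were below the filter in every array, as were 5 of 6 myeloid and 3 of 4 natural killer cell markers. The B cell sum (4 of 5 listed) was 365 to 433 in WT and 267 to 314 in DKO, and the myeloid sum 324 to 377 and 272 to 305. The part of these marker shifts in the results below was not tested, and in bulk RNA fewer cells that express a gene and less RNA per cell cannot be told apart.

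In DKO cells 4 of the 9 members fell against WT and 0 rose. They were the NFAT genes Nfatc3 (to 55.6% of the WT level) and Nfatc2 (to 67.0%), the NF-kappaB precursor gene Nfkb2 (to 71.2%) and the inhibitor gene Nfkbia (to 47.8%). The transactivating NF-kappaB subunits Rel, Rela and Relb and the nuclear inhibitor Nfkbid did not pass, and their arrays overlapped with WT. A call means an adjusted p under 0.05 over all genes tested, and percentages of WT are taken from log2 means. Over all genes, 13.6% were called in this comparison and 5.41% were called lower. The median log2 difference was -0.28 over the members and -0.01 over all genes tested.

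**Figure D1:**
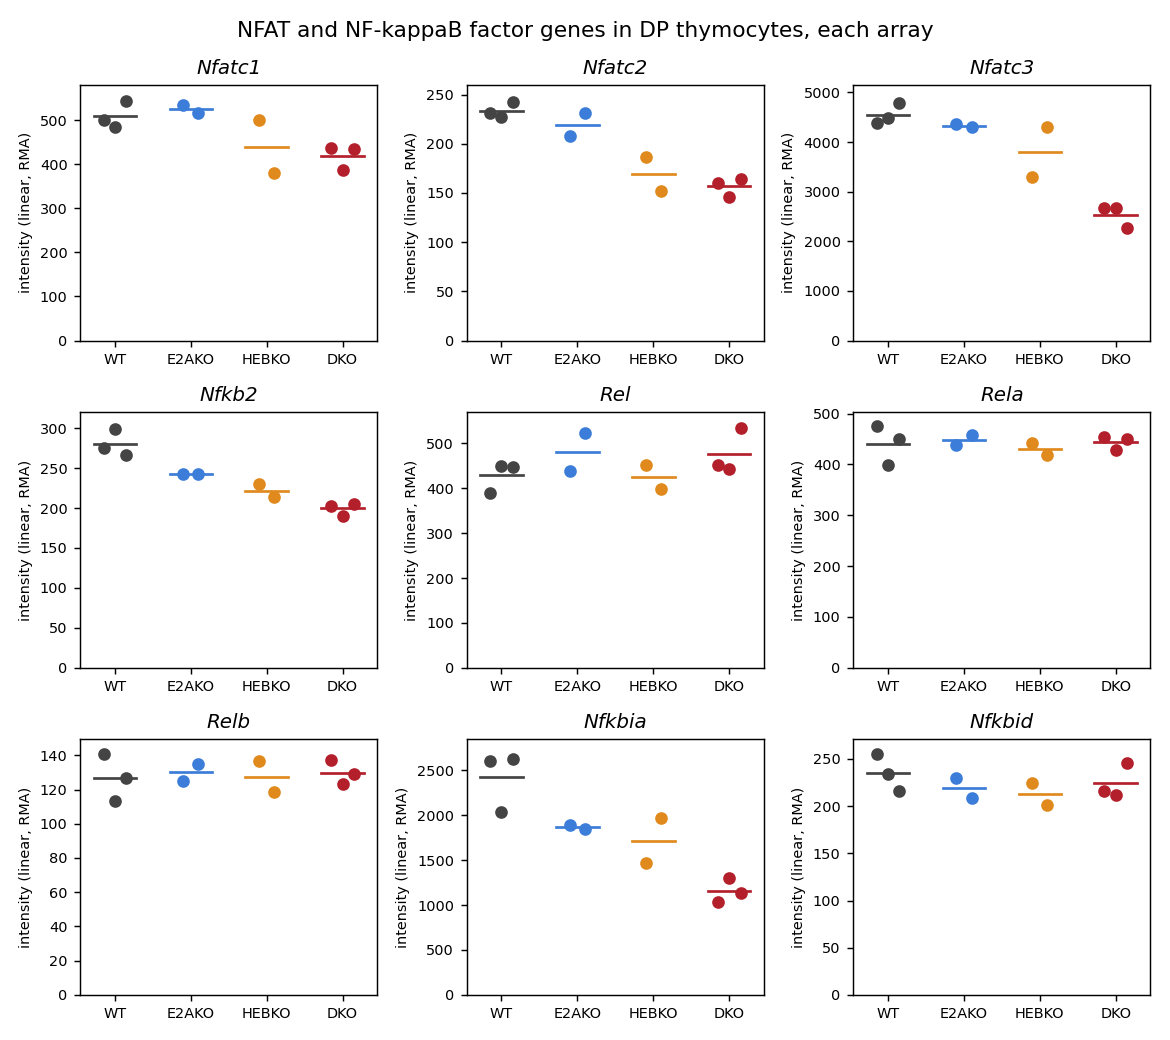
Intensity of each member (linear RMA units, axes from 0) in the 10 arrays, by genotype, with 1 point per mouse and a bar at each group's mean. Nfatc1, Nfatc2, Nfatc3, Nfkb2 and Nfkbia have all 3 DKO arrays below all 3 WT arrays, and Rel, Rela, Relb and Nfkbid overlap.

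Nfatc3 encodes NFAT4, a family member well expressed in DP thymocytes. In intensity, the WT arrays read 4386.1, 4487.2 and 4779.7, the E2AKO arrays 4359.7 and 4303.8, the HEBKO arrays 3303.0 and 4311.3, and the DKO arrays 2674.9, 2668.1 and 2267.7. All DKO arrays lay below every other array, a pattern not counted over all genes. The HEBKO arrays were far apart, with 1 close to the E2AKO arrays. Against WT the DKO difference was -0.85 on the log2 scale (SE 0.11, 95% interval -1.10 to -0.60, adjusted p = 0.000429), a 1.80-fold fall.

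Nfatc2 encodes NFAT1, a calcium-regulated factor of mature T cells. The WT arrays stood at 231.2, 227.1 and 242.6, the E2AKO arrays 207.5 and 231.2, the HEBKO arrays 186.9 and 152.4, and the DKO arrays 160.1, 145.8 and 164.5. The 5 arrays of mice with floxed HEB were all below the 5 arrays of the other mice. The share of all genes with such a split was not counted. The DKO difference from WT was -0.58 (SE 0.10, adjusted p = 0.003), a 1.49-fold fall.

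Nfatc1 encodes NFAT2, which has an inducible short isoform in activated lymphocytes. Isoforms were not separated here. Intensity in the WT arrays was 500.4, 483.7 and 544.3, the E2AKO arrays 535.1 and 515.9, the HEBKO arrays 499.7 and 380.7, and the DKO arrays 436.0, 387.6 and 435.4. All DKO arrays lay below all WT arrays, yet the difference of -0.28 (SE 0.11, 95% interval -0.53 to -0.03) did not pass, with an adjusted p of 0.135. Non-overlap of this kind, all 3 DKO arrays below all 3 WT arrays, was found for 5 members and for 13.4% of all genes. With array weights the fit gave -0.38 for Nfatc1 and an adjusted p of 0.00703, which passes. That fit stopped before full convergence, and its calls over all genes rose from 1786 to 3655. In the other 19 alternatives Nfatc1 did not pass.

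Among the NF-kappaB genes, Nfkb2 encodes p100, which is processed to p52 in the non-canonical pathway and otherwise acts like an inhibitor. In intensity, the WT arrays read 275.6, 299.4 and 265.8, the E2AKO arrays 242.1 and 242.0, the HEBKO arrays 229.8 and 213.3, and the DKO arrays 203.1, 189.9 and 205.6. The 4 genotypes formed 4 steps with no overlap between them. No neighbouring step passed the test (limma, adjusted p = 0.998, 0.617 and 0.566 from WT to DKO). How many of all genes form such steps was not counted. The DKO difference from WT was -0.49 (SE 0.09, adjusted p = 0.00327), a 1.40-fold fall.

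The 3 Rel proteins with a transactivation domain showed no such steps. Rel, which encodes c-Rel, ranged from 390.4 to 450.1 in WT, 438.7 to 522.3 in E2AKO, 397.6 to 451.3 in HEBKO and 443.4 to 535.6 in DKO. Rela, which encodes the p65 subunit of the classical dimer, ranged from 398.1 to 475.0 in WT, 437.8 to 457.2 in E2AKO, 418.1 to 442.7 in HEBKO and 429.2 to 453.7 in DKO. Relb, the usual partner of p52, ranged from 113.3 to 140.9 in WT, 125.2 to 134.9 in E2AKO, 118.3 to 136.5 in HEBKO and 123.0 to 137.2 in DKO. For each of these genes the 4 genotypes overlapped. The 95% intervals of the DKO difference from WT were -0.10 to 0.40 for Rel, -0.19 to 0.22 for Rela and -0.20 to 0.27 for Relb, so a fall of the size seen for Nfkb2 lay outside all 3 intervals. Adjusted p was 0.466, 0.946 and 0.877. Relb was the dimmest member, between the 54.5 and 59.5 percentile of its arrays, where array signals are compressed and a change can be understated.

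The inhibitor gene Nfkbia encodes IkappaB-alpha, which holds classical dimers in the cytoplasm and is itself an NF-kappaB target. The WT arrays stood at 2607.4, 2033.5 and 2630.7, the E2AKO arrays 1895.0 and 1844.7, the HEBKO arrays 1463.3 and 1972.0, and the DKO arrays 1030.5, 1301.7 and 1133.9. Every knockout array was below every WT array, and the DKO arrays were the lowest. This order was not counted over all genes. The DKO difference of -1.07 (SE 0.14, 95% interval -1.37 to -0.76, adjusted p = 0.000391) was a 2.09-fold fall, the largest among the 9 members. Nfkbid encodes IkappaBNS, a nuclear member of the inhibitor family that antigen receptor signals induce. It ranged from 215.8 to 255.3 in WT, 208.7 to 230.2 in E2AKO, 201.6 to 224.9 in HEBKO and 212.1 to 245.5 in DKO. All genotypes overlapped, and its DKO difference was -0.06 (95% interval -0.29 to 0.16, adjusted p = 0.762).

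**Figure D2:**
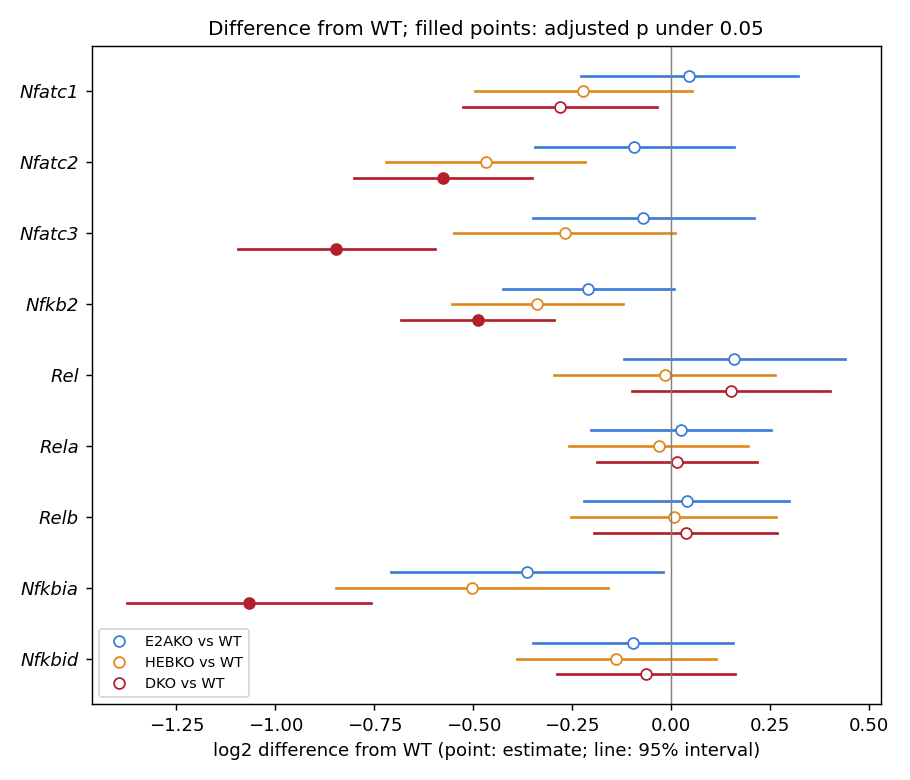
Log2 difference from WT of each member in E2AKO, HEBKO and DKO, with 95% intervals, and filled points where the adjusted p was under 0.05. Filled points occur for DKO alone, at Nfatc2, Nfatc3, Nfkb2 and Nfkbia, the lowest at -1.07.

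The losses of E2A or HEB alone gave no call among the members. For HEBKO against WT, 0.906% of all genes were called, and for E2AKO 0% were, with 418 genes at an unadjusted p under 0.05 in the limma fit. In HEBKO 3 of 9 members and 16.7% of all genes were under that unadjusted level, and in E2AKO 1 member and 3.18% of all genes. The median member difference was -0.22 in HEBKO and -0.07 in E2AKO, against -0.003 and -0.02 over all genes. In HEBKO the differences were -0.50 for Nfkbia (SE 0.16, adjusted p = 0.145), -0.47 for Nfatc2 (SE 0.11, adjusted p = 0.0862), -0.34 for Nfkb2 (SE 0.10, adjusted p = 0.126), -0.27 for Nfatc3 (SE 0.13, adjusted p = 0.317) and -0.22 for Nfatc1 (SE 0.13, adjusted p = 0.41). Both HEBKO arrays were below all WT arrays for the first 4 of these genes, a pattern found for 14% of all genes. The HEBKO arrays differed from each other: without HEBKO 1 the differences were -0.29 for Nfkbia, -0.08 for Nfatc3 and -0.42 for Nfatc1, and without HEBKO 2 they were -0.72, -0.46 and -0.03. Nfatc2 passed in HEBKO with array weights alone (-0.50, adjusted p = 0.0369), where calls over all genes rose from 119 to 515. In E2AKO, Nfkbia was at -0.36 (95% interval -0.71 to -0.02) and Nfkb2 at -0.21 (95% interval -0.43 to 0.01), both with an adjusted p of 0.998. The other members in E2AKO lay between -0.10 and 0.16. The 3 comparisons share the same WT arrays, so their values are set side by side and not counted as separate evidence.

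Set directly against the single knockouts, DKO was lower for Nfatc3 in both cases. Against HEBKO, Nfatc3 was the 1 member called, where 3.63% of all genes were, at -0.58 (SE 0.13, adjusted p = 0.0286). That call ended without HEBKO 2 (-0.38, adjusted p = 0.257), without DKO 1 (-0.62, 0.0501), without DKO 2 (-0.62, 0.0506), without DKO 3 (-0.50, 0.115), with only the compared groups in the fit (0.0799) and with the replicate block (0.0513). Nfkbia was at -0.56 (SE 0.16, adjusted p = 0.0807) and passed without HEBKO 1 (-0.78, adjusted p = 0.0429). Nfatc2, Nfkb2 and Nfatc1 were at -0.11, -0.15 and -0.06 against HEBKO, with intervals of -0.36 to 0.14, -0.37 to 0.07 and -0.33 to 0.22.

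Against E2AKO, where 9.07% of all genes were called, 3 members were lower in DKO. Nfatc3 was at -0.78 (SE 0.13, adjusted p = 0.00251), Nfkbia at -0.70 (SE 0.16, adjusted p = 0.0156) and Nfatc2 at -0.48 (SE 0.11, adjusted p = 0.021). The Nfatc2 call ended without E2AKO 1 (-0.56, adjusted p = 0.0599), without E2AKO 2 (-0.41, 0.164) and without DKO 2 (-0.43, 0.0851). The Nfkbia call ended without E2AKO 1 (-0.68, adjusted p = 0.105), without E2AKO 2 (-0.72, 0.085), without DKO 1 (-0.62, 0.052) and without DKO 3 (-0.69, 0.0504). Nfkb2 (-0.28, adjusted p = 0.112) and Nfatc1 (-0.33, adjusted p = 0.146) did not pass. With array weights alone Nfkb2 did (-0.31, adjusted p = 0.042), where calls over all genes rose from 1191 to 1780. Between the single knockouts 0.0381% of all genes and 0 of 9 members were called, with 1 member and 15.4% of all genes at an unadjusted p under 0.05 in the limma fit. That member was Nfatc2, lower in HEBKO by -0.38 (SE 0.13, adjusted p = 0.194), with no overlap between the groups. Non-overlap of these groups was not counted over all genes.

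The order of the group means followed from these gaps. Nfkb2 ran WT, E2AKO, HEBKO, DKO with log2 gaps of 0.21, 0.13 and 0.15 and no overlap between neighbours. Nfatc3 ran in the same order with gaps of 0.07, 0.20 and 0.58, and the E2AKO and HEBKO arrays overlapped. Nfkbia did so with gaps of 0.36, 0.14 and 0.56, and with overlap at the same place. For Nfatc2 the order was again the same, and the only neighbours without overlap were E2AKO and HEBKO. Of these neighbouring steps, the one from HEBKO to DKO for Nfatc3 was the one that passed the test.

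The combined loss was then compared with the product of the single losses. If the 2 single effects multiplied, Nfatc3 would stand at 79.0% of WT, and the measured DKO level was 55.6%. For Nfkbia the figures were 54.8% and 47.8%, for Nfatc1 88.5% and 82.3%, for Nfatc2 67.7% and 67.0%, and for Nfkb2 68.4% and 71.2%. On the log2 scale the departure for Nfatc3 was -0.51 (SE 0.18, 95% interval -0.90 to -0.11), with an unadjusted p of 0.016 and an adjusted p of 0.391 in the limma fit. It was -0.70 without HEBKO 1 and -0.31 without HEBKO 2, and the adjusted p ran from 0.131 to 0.818 over the alternatives. Nfatc3 was the 1 of 9 members below 0.05 unadjusted, where 8.72% of all genes were. No member passed after adjustment, where 0.632% of all genes did. The departures of Nfatc2 (-0.02, 95% interval -0.37 to 0.34), Nfkb2 (0.06, -0.25 to 0.36) and Nfkbia (-0.20, -0.69 to 0.29) had intervals too wide to tell a product of effects from a moderate departure.

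**Figure D3:**
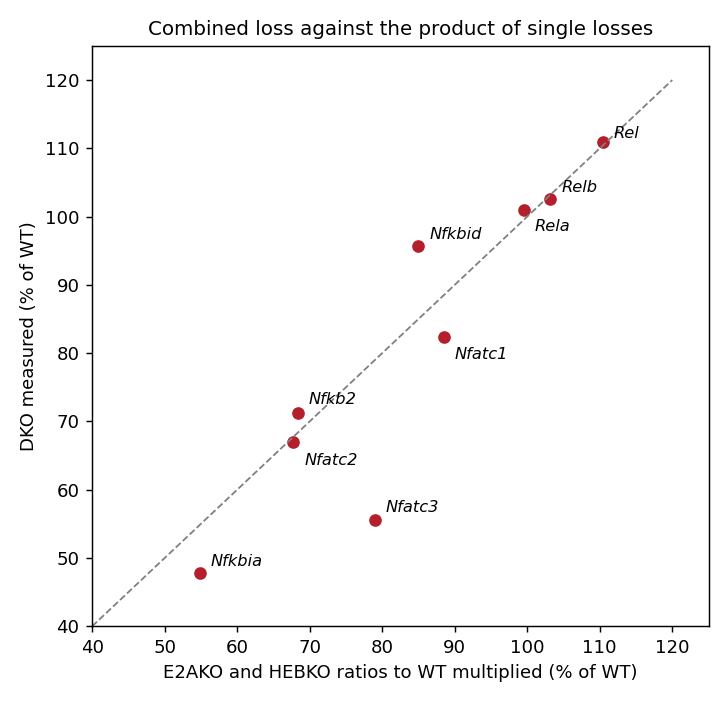
Level of each member in DKO as a percent of WT against the level predicted if the E2AKO and HEBKO effects multiply, with a line where both are equal. Nfatc3 lies farthest below the line, at 55.6% measured against 79.0% predicted, and Nfatc2 and Nfkb2 lie close to it.

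Other genes of both pathways were read from 7 lists by role, 112 genes in all, of which 103 were on the array and 93 were tested. In DKO 12 rose and 14 fell against WT, 28% of those tested against 13.6% of all genes. The number was 17 without WT 3, where the count over all genes also dropped from 1786 to 991. The median difference over the list genes was -0.02. In HEBKO 1 of the 93 was called, Bcl2l1, and in E2AKO 0 were called in the limma fit, with 3 at an unadjusted p under 0.05. The lists were chosen with earlier results known, so these shares describe the lists only.

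**Figure D4:**
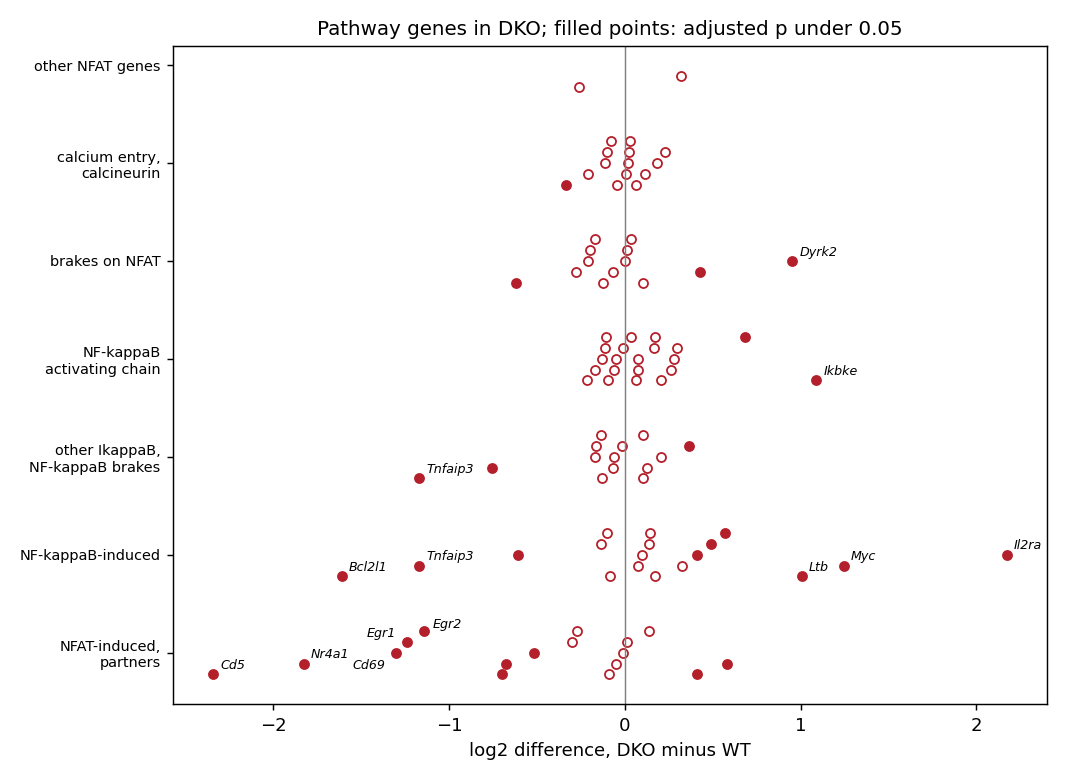
Log2 difference of DKO from WT for the tested genes of each list, 1 point per gene, filled where the adjusted p was under 0.05, with the genes beyond a log2 difference of 0.9 named. Filled points of the NFAT-induced list lie mostly to the left, down to -2.34 for Cd5, and those of the NF-kappaB-induced list lie on both sides, up to 2.17 for Il2ra.

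Upstream of NFAT, 1 of 14 tested genes of calcium entry and calcineurin was called. That gene was Itpr2, an endoplasmic reticulum calcium channel, at -0.33 (SE 0.10, adjusted p = 0.0437), and the call was lost in 10 of 20 alternatives. These were the absence of a filter, the shift to 1 median, the fit of only the compared groups, and the omission of WT 2, WT 3 or any 1 E2AKO or DKO array, and the adjusted p reached 0.171 without WT 3 (-0.29). The plasma membrane channel Orai1 (0.23, adjusted p = 0.235), its calcium sensor Stim1 (0.18, adjusted p = 0.427), the calmodulin gene Calm2 (-0.21, adjusted p = 0.255) and Itpr3 (0.12, adjusted p = 0.504) did not pass. The remaining NFAT family genes Nfat5 (0.32, adjusted p = 0.218) and Nfatc4 (-0.26, adjusted p = 0.201) did not pass either.

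Of 13 tested genes listed as brakes on NFAT, 2 rose and 1 fell. The gene that fell, Fkbp1a, blocks calcineurin with a drug, and no drug was named for these mice. Dyrk2, a kinase that phosphorylates NFAT, was at 475, 412 and 424 in WT and 851, 802 and 883 in DKO, a 1.94-fold rise (log2 0.95, SE 0.09, adjusted p = 4.31e-05). Rcan3, a regulator of calcineurin, rose by 0.43 (SE 0.10, adjusted p = 0.019). The Rcan3 call ended without WT 2 (0.38, adjusted p = 0.05), WT 3 (0.40, 0.0833), DKO 2 (0.44, 0.0566) or DKO 3 (0.38, 0.083). Fkbp1a, the immunophilin through which the drug FK506 blocks calcineurin, was at 770, 778 and 752 in WT and 535, 494 and 471 in DKO, a 1.54-fold fall (log2 -0.62, SE 0.10, adjusted p = 0.00158). Gsk3b (-0.28, adjusted p = 0.188) and Homer3 (-0.21, adjusted p = 0.242) did not pass.

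Of 21 tested genes that link the antigen and TNF receptors to NF-kappaB, 2 rose. Ikbke, which encodes a kinase related to the IkappaB kinases, was at 477, 482 and 555 in WT and 1089, 1013 and 1114 in DKO, a 2.13-fold rise (log2 1.09, SE 0.11, adjusted p = 4.75e-05). Prkcq, the protein kinase C that carries the T cell receptor signal to NF-kappaB, was at 1833, 1879 and 1988 in WT and 2803, 2957 and 3435 in DKO, a 1.61-fold rise (log2 0.69, SE 0.11, adjusted p = 0.00115). The adaptors Tradd (0.30, adjusted p = 0.0749) and Traf5 (0.28, adjusted p = 0.0939) and the kinase Tbk1 (0.26, adjusted p = 0.15) did not pass.

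Beside Nfkbia, 2 of 14 tested genes listed as other IkappaB proteins and brakes on NF-kappaB fell and 1 rose. Nfkbie, which encodes IkappaB-epsilon, was at 353, 326 and 351 in WT and 197, 209 and 205 in DKO, a 1.69-fold fall (log2 -0.75, SE 0.09, adjusted p = 0.000163). Tnfaip3, which encodes the ubiquitin-editing enzyme A20, was at 1135, 1334 and 1242 in WT and 473, 656 and 533 in DKO, a 2.25-fold fall (log2 -1.17, SE 0.14, adjusted p = 0.000234). Both are induced by NF-kappaB as well, as is Nfkbia. Cyld, a deubiquitinase, rose by 0.37 (SE 0.08, adjusted p = 0.0126), a call that ended without WT 3 (0.35, adjusted p = 0.06) or DKO 3 (0.34, 0.0596). Commd1 (0.21, adjusted p = 0.287) and Pdlim2 (-0.17, adjusted p = 0.29) did not pass.

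Genes listed as known to be induced by NF-kappaB moved both ways in DKO, with 6 higher, 3 lower and 9 not called of 18 tested. Nfkbia (-1.07) and Nfkbie (-0.75), also induced by NF-kappaB and lower in DKO, were not on this list. The balance of rises and falls therefore depends on which genes were listed. Il2ra, the interleukin-2 receptor alpha chain, rose from 81, 95 and 74 in WT to 447, 250 and 468 in DKO (log2 2.17, SE 0.20, adjusted p = 2.97e-05). Il2ra is also a double-negative thymocyte marker. Myc rose by 1.25 (SE 0.20, adjusted p = 0.00136), and Ltb, which encodes lymphotoxin beta, by 1.01 (SE 0.11, adjusted p = 8.33e-05). Bcl2l1, which encodes the survival factor Bcl-xL of DP cells, fell from 1519, 1454 and 1607 to 472, 543 and 485 (log2 -1.61, SE 0.11, adjusted p = 3.3e-06). Bcl2l1 was also lower in HEBKO (-0.65, SE 0.12, adjusted p = 0.0316). That HEBKO call was not followed over the alternatives. HEBKO calls over all genes went from 119 to 13 without WT 3 and to 492 without WT 2. The remaining calls in DKO were Tnfaip3 and Bcl2 on the lower side and Irf1, Sod2 and Tnf on the higher side. Bcl2 (-0.61, adjusted p = 0.0462) and Sod2 (0.49, adjusted p = 0.0482) each lost the call in 10 of 20 alternatives. Bcl2 lost it when any 1 WT or E2AKO array, DKO 1 or DKO 2 was left out (adjusted p up to 0.145), and Sod2 when WT 1, WT 3 or any 1 E2AKO or DKO array was (up to 0.171). Tnf (0.41, adjusted p = 0.0178) lost it without WT 3 (0.36, adjusted p = 0.0888), DKO 1 (0.38, 0.0614) or DKO 3 (0.40, 0.0656), and Irf1 (0.57, adjusted p = 0.0027) when its probe sets were averaged (0.29, adjusted p = 0.0768).

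The list of genes taken as induced by NFAT, together with its partners, had 8 falls and 2 rises among 17 tested, with a median of -0.30. Whether NFAT drives these genes in DP cells was not tested. Cd5, a surface brake on T cell receptor signals, was at 1331, 1464 and 1643 in WT and 265, 278 and 332 in DKO, a 5.08-fold fall (log2 -2.34, SE 0.19, adjusted p = 1.45e-05). Nr4a1, an early response gene of the T cell receptor, was at 1141, 828 and 799 in WT and 253, 248 and 269 in DKO (log2 -1.83, SE 0.24, adjusted p = 0.000392). The activation marker Cd69 was at 391, 542 and 412 in WT and 116, 193 and 260 in DKO (log2 -1.30, SE 0.26, adjusted p = 0.00615). The early response factors Egr1 (log2 -1.24, SE 0.22, adjusted p = 0.00305) and Egr2 (log2 -1.14, SE 0.19, adjusted p = 0.00201) were also lower. None of these 5 passed in HEBKO, where the 2 arrays lay on opposite sides of all WT arrays: 1742 and 1008 for Cd5, 1302 and 558 for Nr4a1, 548 and 371 for Cd69, 334 and 158 for Egr1, and 349 and 195 for Egr2. HEBKO 1 was the higher array for each gene, so the HEBKO means of these genes describe neither mouse. The other calls were Jund, Pdcd1 and Mef2d, which were lower, and Cblb and Tnf, which were higher. Pdcd1 (-0.68, adjusted p = 0.0203), Mef2d (-0.51, adjusted p = 0.0235) and Cblb (0.58, adjusted p = 0.0153) each lost the call when 1 array was left out. For Pdcd1 this held without WT 1, WT 3, DKO 1 or DKO 3 (adjusted p up to 0.0691), for Mef2d without WT 1, WT 3, DKO 2 or DKO 3 (up to 0.0994), and for Cblb without WT 3 or DKO 1 (up to 0.074). Mef2d also lost it when its probe sets were averaged (-0.30, adjusted p = 0.112).

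Distance over the 10 arrays was the root mean square difference of log2 values set to each gene's WT mean. It was not scaled to the size of a gene's change. The genes nearest to each fallen member were then listed, with clone and predicted gene symbols passed over. For Nfatc3 they were Ptms, Mier1 and Chd1, at 0.07 to 0.08, where Nfatc3 itself was 0.49 from a flat line. For Nfatc2 they were Lingo4, B3gnt8 and Fam117a (0.10 to 0.11, own distance 0.39). For Nfkb2 they were Tspan18, Stambpl1 and Cacnb1 (0.08 to 0.09, own distance 0.33). For Nfkbia, which had the largest own distance of the 4, they were Cnn3, Atp10a and Gtf2h4 (0.16 to 0.17, own distance 0.66).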

How the data were processed

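Expression was measured on 10 Affymetrix arrays, and the authors deposited linear intensity values made by RMA, per the labels. The RMA version and the genome build of the array are not given in the sources used here. Of 34760 probe sets, 21640 carried 1 gene symbol in a dated platform annotation, 1321 several and 11799 none, and the latter 2 kinds were left out. Where a gene had several probe sets the brightest on average stood for it, and genes were tested that reached percentile 40 in 2 or more arrays (13138 genes, 6799 left out).

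Intensities were turned to log2 with no constant. A model with a mean for each genotype was fitted over the 10 arrays, using limma 3.58.1 under R 4.3.3 (residual degrees of freedom 6, prior 5.68, median gene SD 0.139 log2), and 7 contrasts were tested. Each p is two-sided and adjusted by Benjamini-Hochberg over all genes tested. The steps were tested on simulated data. The number of arrays limits the precision.

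All members were named, with up to 5 genes per list of largest DKO difference, the 3 nearest patterns of each called member, Tcf3 and Tcf12. Bcl2, Irf1, Sod2, Tnf, Jund, Pdcd1, Mef2d, Cblb and the marker genes are outside that rule, picked once values were known. Members and lists were chosen with earlier results of these data known. Alternatives were no filter, a 60 percentile filter, a constant of 16, renewed quantile normalisation, a shift to 1 median, averaged probe sets, eBayes with trend and robust (statmod 1.5.0), array weights, only the compared groups, the replicate block, and each array left out.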

Additional observations from a re-analysis of the deposited data

How the results depend on the processing

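The 4 falls in DKO against WT (Nfatc2, Nfatc3, Nfkb2 and Nfkbia) kept direction and call in all 20 alternatives, with log2 differences of -0.65 to -0.53, -0.93 to -0.77, -0.53 to -0.44 and -1.19 to -0.99. The direction changed for small differences that were never called. In DKO against WT, Rela was -0.0587 with renewed quantile normalisation, -0.0211 with array weights and -0.0573 to 0.0702 with an array left out, and Relb -0.0431 to 0.1145 with an array left out. In HEBKO against WT, Rel was 0.0323 with arrays shifted to 1 median, 0.0421 with the replicate block and -0.108 to 0.0748 with an array left out, Rela 0.0171 with the shift and -0.1036 to 0.0238, and Relb -0.0961 to 0.1096. In E2AKO against WT, Rela was -0.0184 with quantile normalisation and -0.0472 to 0.0803 with an array left out, Relb -0.0408 to 0.1168, and Nfatc1 -0.0156 with array weights. With an array left out, Nfatc1 and Nfatc2 in DKO against HEBKO ran from -0.2541 to 0.1383 and -0.255 to 0.0391, Nfkbia in HEBKO against E2AKO from -0.3536 to 0.0768, and the interaction from -0.3003 to 0.0921 for Nfatc1, -0.1622 to 0.1319 for Nfatc2 and -0.4134 to 0.017 for Nfkbia. The Nfkb2 interaction was -0.0132 with array weights. The cause of these changes was not tested.

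With array weights 1 member was called in HEBKO against WT. The members called in DKO against HEBKO numbered 0 with the replicate block, 0 with only the compared groups and 0 to 2 with an array left out, and in DKO against E2AKO 1 to 3. List genes called in DKO against WT were 17 to 26 with an array left out. Over all genes the DKO calls rose from 1786 to 3655 with array weights, a fit that stopped before full convergence, and were 991 to 1910 with an array left out. HEBKO calls went from 119 to 36 with only the compared groups, 73 with the shift, 515 with array weights, and 2 to 492 with an array left out. E2AKO calls went from 0 to 1 with the replicate block. Calls with an array left out were 193 to 499 in DKO against HEBKO, 588 to 1290 in DKO against E2AKO, 0 to 55 in HEBKO against E2AKO and 27 to 121 for the interaction. HEBKO against E2AKO had 86 calls with the replicate block and 22 with trend and robust, against 5, and the interaction 43 with the block, against 83.

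Same-numbered arrays deviated from their group means with correlations of -0.292 (WT 2 and E2AKO 2) to 0.484 (HEBKO 1 and DKO 1). HEBKO 2 with DKO 2 (0.446), WT 1 with DKO 1 (0.396) and WT 1 with HEBKO 1 (0.368) were also high. WT 2 with DKO 2 (0.008) was not. As not all were over 0.1, the main fit did not take the numbers to pair the mice. Arrays of unlike number were not compared, so a factor shared by number was not tested. With the replicate block DKO calls against WT went from 1786 to 2321 over all genes. Each member has 1 probe set, so a fit of further probe sets gave no value, and averaging probe sets left the members' differences as they were and moved only their p-values. The interaction was not run with only the compared groups. Nearest patterns and marker sums had no alternative run, and the list genes were followed in DKO against WT only.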
